A study of Mus musculus with 6 samples.

Results

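Genes that mark the fetal-like or regenerating state of the crypt were described in sorted stem cells of the mouse intestine, with and without INT-777. They are Msln, Plaur, Plau, Anxa10, Ly6a, Ly6e, Clu, Emp1 and Tubb6, 9 of the 54838 genes in the deposited count tables. Each matched a single Ensembl identifier by symbol, and all 9 passed the filter on low counts that left 15998 genes. The genes were chosen for how they stood between INT-777 and DMSO in these same libraries, some because they were higher and some because they were flat. Their differences between the treatments are therefore a description and carry no test.

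The experiment asked which genes respond when TGR5 is stimulated. TGR5 is a bile acid receptor of the cell surface, and its synthetic agonist INT-777 is derived from a bile acid. All cells came from B6.129P2-Lgr5tm1(cre/ERT2)Cle/J mice, whose Lgr5 locus carries green fluorescent protein and an inducible Cre, so the reporter follows the Lgr5 promoter. On each of 3 days, intestines of 4 mice were pooled and the cells with high reporter signal were sorted and set in Matrigel, in medium with JAG-1 at 1 µM and CHIR99021 at 3 µM. Both groups carried that allele and both media supplements. The 3 INT-777 libraries received the compound at 30 µM from 4 h after embedding and the 3 DMSO libraries received the solvent, with 1 library of each group per day. The sample labels give 12 h of treatment and the design text gives 16 h. The sources used here do not give the age of the mice. Each library comes from pooled mice, so no p-value measures the spread between single mice. Without the day in the model, p-values measure the spread between libraries of a group, taken as independent although libraries of both groups share each day. With the day in the model, they measure the spread that is left once day and treatment are fitted. Deviations from the group means correlated as well between days 1 and 2 as within them (0.336 and 0.363 against 0.329 and 0.369). The 3 deviations of a group cancel in sum, so a day 3 that stands apart raises these values by itself. They cannot decide how far days 1 and 2 are independent, which is not known from the data. Counts given without day 3 rest on these 2 days alone.

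In healthy adult crypts the stem cells at the base express Lgr5. After irradiation, infection or wounding, crypt cells transiently switch on genes that are otherwise typical of the fetal gut epithelium, among them Ly6a (Sca-1) and Clu, and this state is known for YAP activity and for rebuilding the crypt. The 9 genes fall into groups by what they encode: a surface glycoprotein (Msln), the urokinase system (Plau and its receptor Plaur), an annexin (Anxa10), 2 further members of the Ly6 and uPAR family (Ly6a and Ly6e), a secreted chaperone (Clu), a membrane protein (Emp1) and a tubulin (Tubb6).

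The libraries held 45682340 to 47905087 read pairs assigned to genes. Values are given as CPM, counts per 1000000 assigned read pairs, after TMM scaling. Day 3 stood apart from the other days, which were much alike. On day 3 RNA integrity numbers were 8.7 (DMSO) and 9 (INT-777), against 9.2 to 9.6 on days 1 and 2. Summed CPM of 10 goblet cell markers was 28340 (DMSO) and 12520 (INT-777) on day 3, against 5616 to 5713 and 2945 to 3047 on the other days, so it was lower with INT-777 on every day. Summed CPM of 16 immune cell markers was 8.17 and 8.41 on day 3 and 1.59 to 1.87 on days 1 and 2. The part of these shifts in the values below was not tested. The 16 epithelial and stem cell markers, such as Krt8, Epcam and Lgr5, summed to between 9487 and 10370 CPM in every library, with none at 0. The most abundant was Krt8, at 3331 CPM on average. The sum mixes general epithelial genes with stem cell genes, so it does not show how many of the cells were stem cells. In bulk RNA, more cells of a type and more RNA per cell cannot be told apart.

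Of the 9 genes, Msln and Anxa10 stood several-fold higher with INT-777, Plaur, Emp1 and Tubb6 stood higher by less, Ly6e stood lower, and Plau, Clu and Ly6a had groups that overlapped. In the fit over all genes without the day as a block, 2 of the 9, Msln and Plaur, were past the threshold in the direction of higher levels (edgeR quasi-likelihood test, Benjamini-Hochberg adjusted p under 0.05), where 0.688% of all 15998 genes were (1.45% in either direction). None was past it lower, where 0.763% of all genes were, and 1 was lower at an unadjusted p under 0.05. DESeq2 had 4 higher and 1 lower, where 2.61% and 3.03% of its genes were (5.64% in either direction). With the day as a block, 5 were past it higher, Anxa10, Emp1 and Tubb6 joining the former pair, and 1 lower, Ly6e, where 11.1% and 10.3% of all genes were (21.3% in either direction). The remaining 3 passed in neither fit. The groups did not overlap for 6 of the 9, against 24.5% of all genes. In all, 8 of the 9 differed in 1 direction on all 3 days, against 52.0% of all genes. Nothing is read from these counts, since the genes were picked from this contrast.

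**Figure D1:**
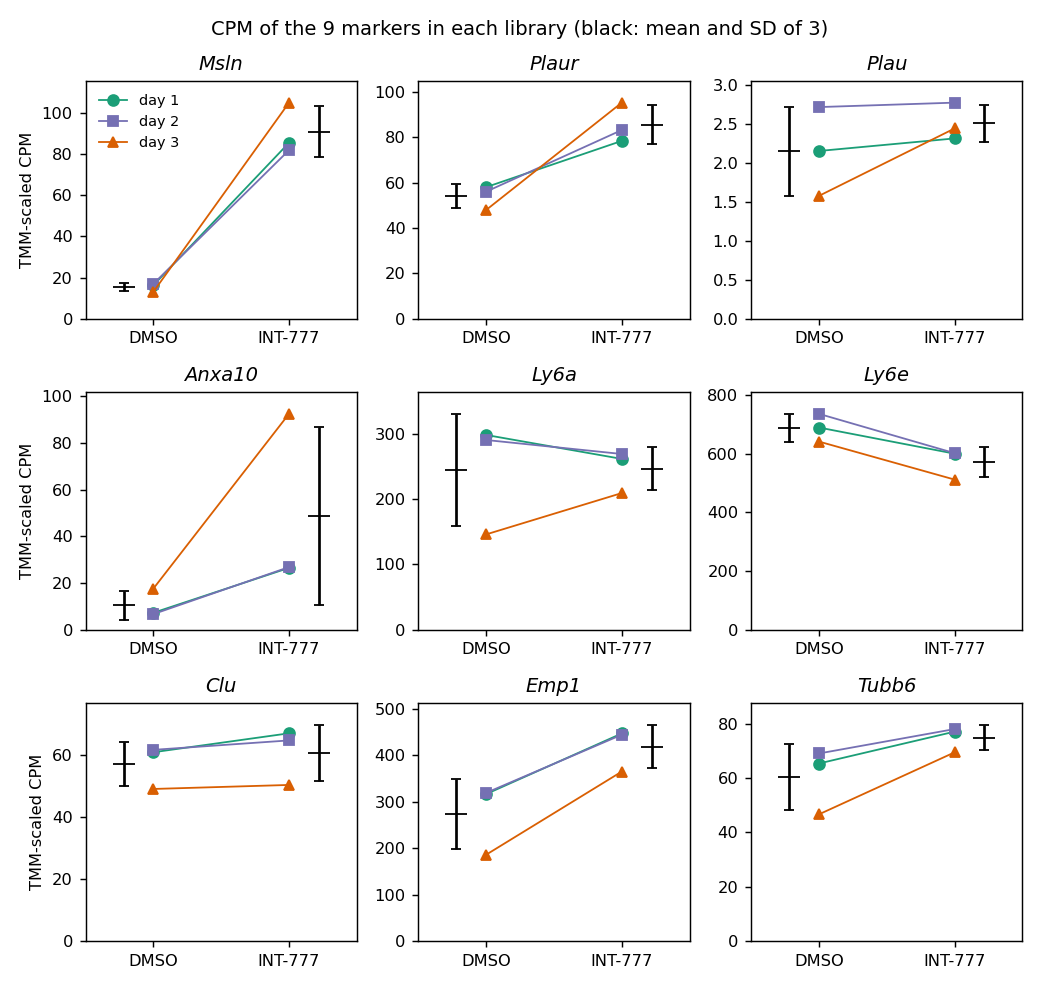
TMM-scaled CPM of the 9 genes (vertical axes, from 0) in the DMSO and INT-777 libraries, with a line joining the 2 libraries of each day and black bars for the mean and SD of 3 libraries. Msln lies at 13.0 to 16.9 CPM with DMSO and 82.0 to 105 with INT-777, whereas the lines of Ly6a cross between days.

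Msln encodes mesothelin, a surface protein held by a GPI anchor that is typical of mesothelial cells and of some epithelia under repair and tumours. The gene lies on chromosome 17 at 25748613 to 25754378 (GRCm38, minus strand). On days 1, 2 and 3 it had 16.2, 16.9 and 13.0 CPM with DMSO and 85.6, 82.0 and 105.1 CPM with INT-777. The lowest INT-777 library was thus far above the highest DMSO library. Day 3 held both the lowest and the highest of the 6 values. The ratio of INT-777 to DMSO was 5.28 on day 1, 4.84 on day 2 and 8.06 on day 3, and the edgeR log2 fold change was 2.56 ± 0.13 (SE). On the scale of log2(CPM + 0.5), the mean difference over days of 2.52 ± 0.39 (SD, n = 3) ranked 1 among the 15998 genes.

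Other markers of mesothelial cells, which are known for Msln, were also measured. The 9 mesothelial markers summed to between 0.760 and 1.24 CPM with DMSO and between 1.15 and 2.61 CPM with INT-777. The sum was 1.23 with DMSO and 2.61 with INT-777 on day 3, the day on which Msln had its largest ratio, and its part in the difference of Msln was not tested. Bnc1 and Muc16, the gene of the mucin that binds mesothelin, had no read pair in any library, and 8 of the 9 stayed under 1 CPM throughout. The most abundant was Upk1b, a uroplakin, at 0.920 CPM on average.

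Beside Msln lies its paralogue Mslnl, mesothelin-like, on chromosome 17 at 25736042 to 25748330 (plus strand). It was picked out here after its values were seen. The 2 genes run towards each other with 282 bases between their annotated ends, and the counts ignore strand. Mslnl had 6.80, 7.23 and 4.72 CPM with DMSO and 15.8, 16.5 and 10.8 CPM with INT-777 on days 1, 2 and 3, so its groups did not overlap. Its log2 fold change was 1.20 ± 0.21 (SE) with an edgeR adjusted p of 0.0525, and with the day block 1.20 ± 0.08 with an edgeR adjusted p of 8.51e-08. Unlike Msln, it was lowest on day 3 within each group. Whether reads running past the end of Msln entered its count was not tested.

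Plaur encodes uPAR, the GPI-anchored receptor that gathers urokinase at the cell surface, and Plau encodes urokinase, the protease that turns plasminogen into plasmin. Plaur lies on chromosome 7 at 24462484 to 24475968 (plus strand). Its levels were 58.1, 56.1 and 47.97 CPM with DMSO and 78.5, 83.3 and 95.4 CPM with INT-777 on days 1, 2 and 3. All INT-777 libraries lay above all DMSO libraries, and day 3 again held both extremes. The ratio was 1.35, 1.49 and 1.99 on the 3 days, and the edgeR log2 fold change was 0.67 ± 0.10 (SE). Without both libraries of day 3 the mean log2 difference was 0.50, against 0.66 with them.

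The ligand did not follow its receptor as clearly. Plau (chromosome 14, 20836660 to 20843385) was the lowest of the 9 genes, with 99, 125 and 73 read pairs in the DMSO libraries and 109, 132 and 114 in the INT-777 libraries. In CPM these were 2.15, 2.71 and 1.57 against 2.31, 2.77 and 2.44, and the groups overlapped. The log2 fold change of 0.22 ± 0.21 (SE) was about as large as its error. Most of the difference lay on day 3, with a log2 difference of 0.50, against 0.09 and 0.03 on days 1 and 2.

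Anxa10 encodes annexin A10, a calcium- and phospholipid-binding protein that in adults is typical of gastric epithelium. It lies on chromosome 8 at 62057042 to 62123150 (minus strand). Its levels were 7.27, 6.71 and 17.6 CPM with DMSO and 26.5, 26.8 and 92.4 CPM with INT-777 on days 1, 2 and 3. Both day 3 libraries stood above the other libraries of their group, and even so the highest DMSO library was below the lowest INT-777 library. The ratio was 3.64, 4.00 and 5.25 on the 3 days. This pattern gave a log2 fold change of 2.21 ± 0.74 (SE) without the day block and 2.12 ± 0.09 with it. By mean difference over days, 2.03 ± 0.30 (SD, n = 3), Anxa10 was the third of all 15998 genes.

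The upstream sequences of Plaur and Anxa10 are shown as examples, picked after the matches were seen. Both genes were higher with INT-777 and hold the same short motif in the 250 bases before their start. Emp1, which is not shown, was also higher and holds it before the first of its starts. RefSeq promoter windows matched 3 of the 9 genes, with 1 start each for Plaur and Anxa10 and 2 for Emp1. Distances are counted from these RefSeq starts, which differ from the ends of the gene coordinates given here, taken from another annotation. The search covered the 250 bases before each start, on both strands, for the AP-1 motif TGANTCA and the TEAD motif GGAATG, which did not overlap each other in these windows. Capitals mark the AP-1 matches in these 250 bases (RefSeq, GRCm38.p6), written 5′ to 3′ on the strand of the gene, chr7:24462233-24462482 (plus strand) for Plaur and chr8:62123194-62123443 (minus strand) for Anxa10.
Plaur: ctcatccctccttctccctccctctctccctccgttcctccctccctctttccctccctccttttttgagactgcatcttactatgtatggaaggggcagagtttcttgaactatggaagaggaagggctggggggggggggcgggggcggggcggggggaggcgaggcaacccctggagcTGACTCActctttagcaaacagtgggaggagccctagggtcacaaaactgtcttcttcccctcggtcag
Anxa10: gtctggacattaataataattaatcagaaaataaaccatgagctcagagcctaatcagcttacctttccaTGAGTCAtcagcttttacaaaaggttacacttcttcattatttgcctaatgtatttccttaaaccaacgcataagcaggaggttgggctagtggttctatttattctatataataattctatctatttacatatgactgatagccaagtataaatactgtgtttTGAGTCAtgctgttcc

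In Plaur the AP-1 match began 69 bases before the start. Anxa10 had AP-1 matches that began 180 and 16 bases before its start. Emp1 had them 145 and 25 bases before the first of its starts and none before the other. Of all 32851 promoter windows of this length, 6.75% held an AP-1 match. The TEAD motif was found in none of the 4 windows and in 12.6% of all windows. A match of letters is a description and does not show that a factor binds there.

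Emp1 encodes a small membrane protein of the PMP22 family, and Tubb6 encodes a beta tubulin of the microtubule. Emp1 (chromosome 6, 135362545 to 135383173) had 316.7, 319.3 and 185.9 CPM with DMSO and 447.5, 444.8 and 365.3 CPM with INT-777 on days 1, 2 and 3. Tubb6 (chromosome 18, 67390717 to 67402749) had 65.3, 69.0 and 46.6 CPM with DMSO and 77.0, 78.0 and 69.4 CPM with INT-777. In both genes the day 3 libraries were the lowest of their group, the DMSO library more so, and the groups did not overlap. For Tubb6 the margin was small, since the highest DMSO library had 69.0 and the lowest INT-777 library 69.4 CPM. The log2 fold changes were 0.61 ± 0.22 (SE) for Emp1 and 0.31 ± 0.15 for Tubb6 without the day block, and 0.65 ± 0.11 and 0.33 ± 0.07 with it. The ratio for Emp1 was 1.41, 1.39 and 1.97 on the 3 days, and that for Tubb6 was 1.18, 1.13 and 1.49. Tubulin genes are alike in sequence, so the count of Tubb6 is uncertain where read pairs matched several of them.

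Ly6a and Ly6e belong to the same family of small GPI-anchored proteins as uPAR. Ly6a, or Sca-1, is the surface marker most used to sort fetal-like crypt cells, and Ly6e is known as an interferon-induced gene. They lie 34971 bases apart on chromosome 15, Ly6a at 74994877 to 74998031 (minus strand) and Ly6e at 74955051 to 74959905 (plus strand). Ly6a had 297.8, 290.1 and 145.8 CPM with DMSO and 261.2, 268.7 and 209.0 CPM with INT-777 on days 1, 2 and 3. With INT-777 it was lower on days 1 and 2, with ratios of 0.877 and 0.926, and higher on day 3, with a ratio of 1.43. The mean log2 difference of 0.07 ± 0.39 (SD, n = 3) therefore stands for no single day, and it was −0.15 without both libraries of day 3. Immune and endothelial cells can also express Ly6a. Their 16 and 8 markers summed to at most 8.41 and 4.08 CPM, both highest on day 3, and their part in the values of Ly6a was not tested.

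Ly6e was the single gene of the 9 that was lower with INT-777 on every day. Its levels were 688.7, 735.3 and 640.9 CPM with DMSO and 599.6, 601.4 and 511.4 CPM with INT-777. The highest INT-777 library was below the lowest DMSO library. The ratios of 0.871, 0.818 and 0.798 were much alike, and the log2 fold change was −0.27 ± 0.09 (SE), or −0.27 ± 0.04 with the day block. Ly6 genes are similar to each other, and the part of read pairs shared between them is not known.

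Clu encodes clusterin, a secreted chaperone that marks the revival stem cells seen after crypt damage. On chromosome 14 at 65968483 to 65981547, it had 60.9, 61.7 and 49.1 CPM with DMSO and 67.1, 64.8 and 50.4 CPM with INT-777 on days 1, 2 and 3. The groups overlapped, because both day 3 libraries were below all libraries of the other days. Within each day the INT-777 library was slightly higher, with ratios of 1.101, 1.05 and 1.03. The log2 fold change was 0.09 ± 0.13 (SE) without the day block and 0.08 ± 0.05 with it.

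**Figure D2:**
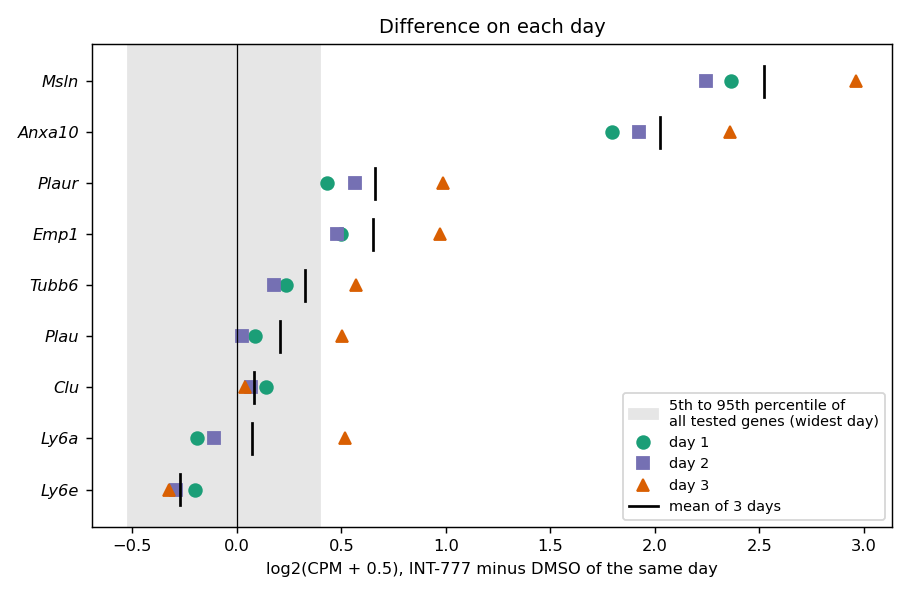
Difference in log2(CPM + 0.5) between the INT-777 and the DMSO library of the same day (horizontal axis) for each gene, with 1 symbol per day, a black bar for the mean of 3 days and a grey band from the lowest 5th to the highest 95th percentile of the tested genes over the days (−0.52 to 0.40). Msln and Anxa10 lie far to the right of the band on every day, and for 6 of the 7 genes that were higher on all days the day 3 symbol is the rightmost.

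The size of the difference was not the same in the pairs of the 3 days. Of the 7 genes that were higher with INT-777 on all days, 6 had their largest difference on day 3, the exception being Clu. Over all genes that were higher on all days the share was 51.4%. In DMSO, 8 of the 9 genes, all but Anxa10, had their lowest value on day 3, against 42.4% of the tested genes. In INT-777, 5 of the 9 were lowest on day 3, against 40.4% of the tested genes. Msln, Plaur and Anxa10 were highest there, 3 of the 9 against 42.3% of the tested genes. The genes were picked from the treatment differences of these same libraries, so nothing is read from these counts. Each group has a single library per day, so differences between days cannot be told from differences between libraries.

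Levels between genes were compared per length, as CPM per kb of exon. In DMSO Ly6a was the highest of the 9, with 203 ± 71.0 (SD, n = 3), and Ly6e was next with 182 ± 12.5. Their libraries overlapped in range, and per length they were above 99.0% and 98.9% of the tested genes. Emp1 followed with 46.2 ± 12.9, then Tubb6 with 24.7 ± 4.93 and Plaur with 20.7 ± 2.04, the latter 2 overlapping. Clu had 16.7 ± 2.06. Msln with 5.03 ± 0.675 and Anxa10 with 4.595 ± 2.68 overlapped near the middle of all genes, above 51.8% and 50.1% of them. Plau was at the foot with 0.906 ± 0.241. Ly6a was thus abundant in these sorted cells with DMSO alone.

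In INT-777 the order of the middle genes was different. Per length Plaur had 32.8 ± 3.33, Tubb6 30.7 ± 1.93 and Msln 29.7 ± 4.05, and neighbours in this order overlapped in range. Anxa10, with 21.2 ± 16.6, overlapped Msln and Clu because of its day 3 library. By mean, Clu came after with 17.7 ± 2.63, though it was above Anxa10 on days 1 and 2, and Plau was last with 1.06 ± 0.1002. Ly6a (204 ± 27.0), Ly6e (151 ± 13.6) and Emp1 (70.6 ± 7.87) kept the first places with ranges apart from each other.

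**Figure D3:**
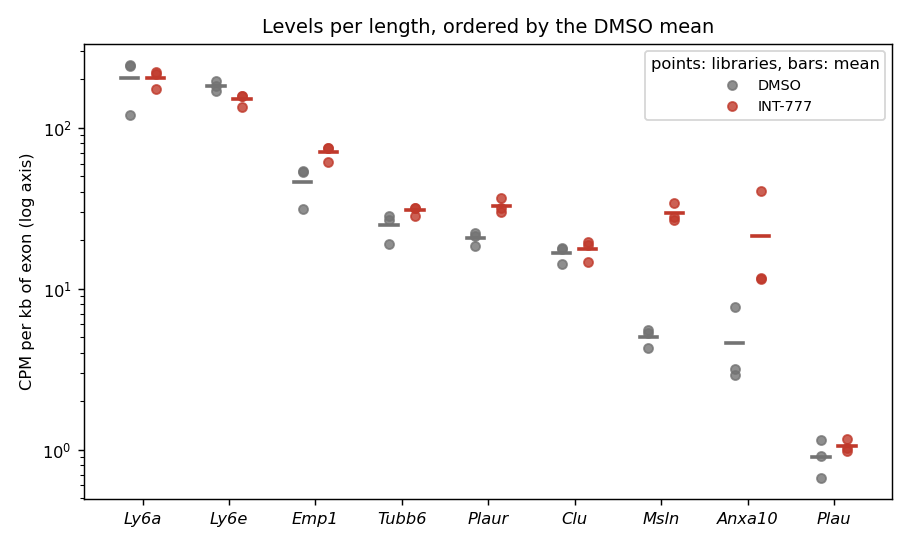
Levels of the 9 genes in CPM per kb of exon (log axis), ordered by the DMSO mean, with 1 point per library and a bar for the mean of 3 libraries in grey (DMSO) and red (INT-777). Msln moves from 5.03 to 29.7 and so from the level of Anxa10 in DMSO to that of Tubb6. By mean, Clu, at 16.7 and 17.7, goes from the sixth to the eighth place. That place rests on the day 3 INT-777 library of Anxa10 (40.3), since on days 1 and 2 Clu (19.5 and 18.8) was above Anxa10 (11.6 and 11.7).

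The difference between days had no part in how the genes were chosen and was tested with treatment held in the model. Of the 9 genes, 4 differed between days (edgeR quasi-likelihood F-test, Benjamini-Hochberg adjusted over 15998 genes), where 20.5% of all genes did. Anxa10 was higher on day 3 than on day 1 by 1.59 on the log2 scale (edgeR adjusted p = 1.39e-07). The other 3 were lower on day 3 in that model, as 8.6% of all genes were, where 11.9% were higher. Clu differed from day 1 by −0.36 (edgeR adjusted p = 0.000352), Ly6e by −0.17 (edgeR adjusted p = 0.0151) and Tubb6 by −0.31 (edgeR adjusted p = 0.0163). Emp1, at −0.52, did not pass (edgeR adjusted p = 0.0919), nor did Ly6a, at −0.66 (edgeR adjusted p = 0.342), whose treatment difference turned between days. Msln (edgeR adjusted p = 0.965) and Plaur (edgeR adjusted p = 0.995) did not pass either, and their day 3 log2 differences from day 1 were 0.07 and 0.02. These values average over both groups. Msln and Plaur were each lower on day 3 than on day 1 with DMSO and higher with INT-777, and such opposite shifts cancel in this test. Without DMSO replicate 3, 8 of the 9 genes passed, and without INT-777 replicate 3 all 9 did. In these fits a single library stands for day 3.

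Over the 6 libraries, which share treatment and day, the profiles of the genes were compared in pairs. This is a description of log2(CPM + 0.5) with no test. Because the genes were picked from the treatment contrast, the values partly restate that choice. Pearson's r was 0.973 between Msln and Plaur and 0.986 between Emp1 and Tubb6. Ly6a went with Clu (r = 0.839) and Tubb6 (0.801) and hardly with Msln (0.155). Ly6e ran opposite to Anxa10 (r = −0.990). Other pairs lay between these extremes, with r of 0.895 for Plau and Tubb6 and 0.791 for Msln and Emp1, so no separate sets are read from them.

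Among 11322 genes with a mean log2 level of at least 1, those with the profile most like Msln over the 6 libraries were Exosc5 (r = 0.998), Rpusd1 (0.997), Gltp (0.997) and Tex30 (0.996). Those most like Plaur were Pole2 (r = 0.999), Anxa7 (0.997), Tspan6 (0.997) and Krt8 (0.997). The likeness was one of shape and not of size, since the day 3 log2 difference was 0.28 for Exosc5 and 0.30 for Pole2. Those most like Ly6a were Hnrnpa3 (r = 0.995), Rbl1 (0.993), Xkr5 (0.990) and Diaph3 (0.990), which like Ly6a were lowest in the DMSO library of day 3.

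Other genes of the fetal-like and regenerating state followed in part. This list of 33 further genes was drawn up with earlier results of these data known. On simulated data the fits made a larger share of false calls than the threshold of 0.05 allows. Genes near the threshold, here and in the lists below, are therefore less certain than their adjusted p. Of 32 tested, 5 rose with INT-777, 1 fell and 26 did not pass without the day block, where 0.688% and 0.763% of all genes did. With the block 13 rose and 2 fell, where 11.1% and 10.3% of all genes did. The median log2 fold change was 0.11, against 0.00 for all genes tested. By day the median of the list was 0.06, 0.12 and 0.29 on days 1, 2 and 3. Without both libraries of day 3, 14 rose and 7 fell, where 13.9% and 12.9% of all genes did. Without both libraries of day 1, or of day 2, none passed (edgeR), with 9 higher and 1 lower, or 7 higher and 2 lower, at an unadjusted p under 0.05. None was higher without INT-777 replicate 1 or 2 either.

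The 5 that rose encode proteins of different kinds. Il1rn, the antagonist of the interleukin 1 receptor, rose from 6.27 ± 1.33 to 20.1 ± 0.458 CPM (mean and SD, n = 3, log2 1.68 ± 0.15 SE, edgeR adjusted p = 0.00584). The annexin gene Anxa8 rose from 0.303 ± 0.0791 to 1.22 ± 0.268 CPM (log2 1.99 ± 0.29, edgeR adjusted p = 0.0236), from a low level. Tnfrsf12a, the receptor of the cytokine TWEAK, rose from 103.9 ± 0.599 to 151.7 ± 8.64 CPM (log2 0.55 ± 0.05, edgeR adjusted p = 0.00698). Sprr2a3, of the small proline-rich family, rose by 0.73 ± 0.11 and the keratin gene Krt7 by 0.29 ± 0.05 on the log2 scale (edgeR adjusted p = 0.0246 and 0.0419). The gene that fell, Cxadr, encodes a junction protein that serves as a virus receptor, and went from 150.9 ± 3.81 to 117.7 ± 2.05 CPM (log2 −0.36 ± 0.05, edgeR adjusted p = 0.0161). The count of Sprr2a3 is uncertain, because its close relatives differ from it by few bases. Spp1, the gene of osteopontin, was too low to be tested. The genes that rose only with the day block included Ccn2, Crip2, Ctsl, Hmga2, Igf2bp1, Krt19 and S100a6. The block added Cldn4, a claudin of the tight junction, to those that fell. Ccn2 is a well-known target of YAP. The related Ccn1, also on the list, passed in neither fit, with a log2 fold change of 0.01 ± 0.15 (SE) without the block and 0.03 ± 0.08 with it. YAP activity was not tested.

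**Figure D4:**
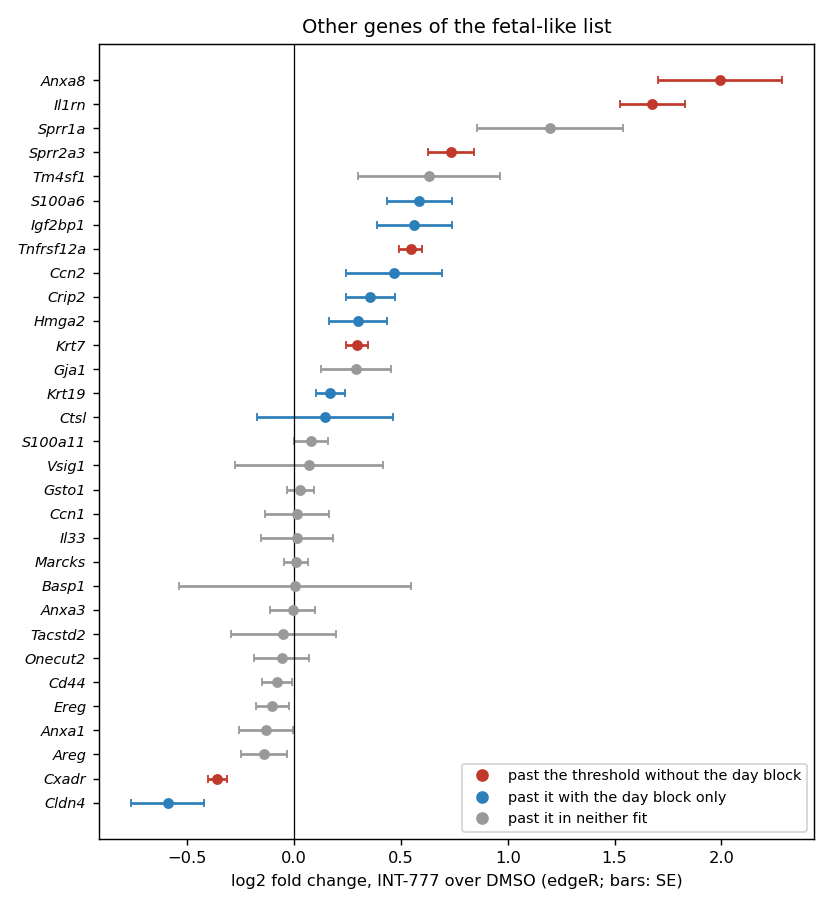
Log2 fold change of INT-777 over DMSO (horizontal axis, edgeR, bars are SE) for 31 of the 32 tested genes of the fetal-like list other than the 9, coloured by whether they passed the threshold without the day block (red), with it only (blue) or in neither fit (grey). The 5 red genes to the right of 0 are Anxa8, Il1rn, Sprr2a3, Tnfrsf12a and Krt7, and Cxadr is the red gene to the left.

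In the urokinase and plasmin system, 1 partner of Plaur and Plau rose without the day block, and calls went both ways with it. Of 30 genes, 20 were tested, 1 rose and none fell (edgeR), against 0.688% and 0.763% of all genes. In that fit 3 had an unadjusted p under 0.05 and were lower, and DESeq2 called 2 higher and 2 lower. The gene that rose was Anxa2, a subunit of a plasminogen receptor on the cell surface, from 738.6 ± 38.8 to 1091 ± 59.3 CPM (log2 0.56 ± 0.07, edgeR adjusted p = 0.0149). S100a10, also on the list, passed in neither fit, with a log2 fold change of 0.23 ± 0.10 (SE) without the block (edgeR adjusted p = 0.322). A rise of the receptor as a whole is thus not shown. With the day block Anxa2 and Eno1 rose, and Plat, Plgrkt, Lrp1, Itgb6 and St14 fell, so that 2 rose and 5 fell of 20, against 11.1% and 10.3% of all genes. Plat, the gene of tissue plasminogen activator, had a log2 fold change of −0.33 ± 0.10 (SE) in that fit (edgeR adjusted p = 0.0295). Plgrkt, another plasminogen receptor, had −0.48 ± 0.05 (edgeR adjusted p = 3.66e-06). The log2 differences of Plat on days 1, 2 and 3 were −0.604, −0.341 and −0.007. Those of Itgb6 were −0.22, −0.272 and −0.043. The calls of Plat and Itgb6 thus rest mainly on days 1 and 2, whose independence is not known. Plgrkt, Lrp1 and St14 were lower on day 3 too (−0.402, −0.283 and −0.144). The median of the list was −0.09, against 0.00 for all genes. Plg itself, the urokinase inhibitor gene Serpinb2 and Vtn, a partner of uPAR, were too low to be tested. Without both libraries of day 3, 2 of the genes rose and 7 fell, and without those of day 1 or of day 2 Anxa2 was no longer past the threshold.

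Of the wider Ly6 and uPAR family, 34 of the 37 genes listed matched the annotation and 15 were tested. None passed in either direction (edgeR), where 1.45% of all genes did, with 1 higher and 1 lower at an unadjusted p under 0.05, and DESeq2 called none. The smallest p-values were those of Lypd3 (log2 0.69 ± 0.22 SE, edgeR adjusted p = 0.194), Ly6g6c (−0.86 ± 0.30, edgeR adjusted p = 0.223) and Ly6d (0.43 ± 0.20, edgeR adjusted p = 0.338). With the day block Ly6d and Lypd3 rose and Ly6g6c and Lypd8 fell, 4 of 15, where 21.3% of all genes passed. The family median was 0.05, against 0.00 for all genes.

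The paralogues of the other genes went both ways. Of 18 tested annexin, tubulin, PMP22-type and mesothelin-like genes, Anxa2, which is on the former list too, rose and Emp2 fell without the day block, where 0.688% of all genes were higher and 0.763% lower. With the block 6 rose and 5 fell, where 11.1% and 10.3% of all genes did. Emp2, the relative of Emp1, went from 67.2 ± 1.53 to 52.7 ± 3.62 CPM (log2 −0.35 ± 0.06, edgeR adjusted p = 0.0452), the direction opposite to the log2 difference of Emp1. The block added Mslnl, Anxa7, Anxa9, Tubb4b and Tubb5 to those that rose, and Anxa6, Anxa13, Tubb2b and Tubb4a to those that fell. The median of these paralogues was −0.05. Without both libraries of day 3, 5 of them rose and 7 fell, and without those of day 1, or of day 2, none passed.

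Markers of further cell types that the sort could hold were low, apart from epithelial lineages. The 10 stromal markers were all under 1 CPM in every library and summed to between 1.61 and 2.16 CPM with DMSO and 1.102 and 1.71 with INT-777. The 8 endothelial markers summed to between 1.56 and 4.08 CPM, with Emcn at 0 throughout. The 9 M cell markers summed to between 152 and 195 CPM with DMSO and 113 and 155 with INT-777, Marcksl1 being the most abundant, and their defining gene Gp2 was at 0 in all libraries.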

How the data were processed

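RNA was measured in 6 bulk libraries, 3 with INT-777 and 3 with DMSO. The authors deposited raw counts of read pairs per gene. Per the submitters' processing notes, FastQC, STAR 2.73a and edgeR 3.24.3 were used, with GRCm38 and mm10 as builds. The sources used here do not name the annotation. The counts that ignore strand were used, since 50.1 to 50.6% of stranded counts fell on the first strand. Between 74.5 and 75.6% of read pairs were assigned to genes; unmapped (10.3 to 11.3%), multimapping (5.96 to 6.31%), ambiguous (4.35 to 4.54%) and featureless pairs (3.32 to 3.83%) stayed out. Of 54838 identifiers, 54809 matched GENCODE M21, which gave names, coordinates and exon lengths.

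Counts were filtered with filterByExpr, scaled with TMM and compared with the edgeR 4.0.16 quasi-likelihood test (R 4.3.3, robust, two-sided, Benjamini-Hochberg, threshold 0.05) with treatment alone. The SE of a log2 fold change was taken as its size divided by the root of F. Daily differences are of log2(CPM + 0.5). The test of days was an F-test on both day terms, with treatment in the model. Figures were drawn with matplotlib 3.10.9. The fits were tested on simulated data with known changes, where the share of false calls was above the threshold.

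Per the labels, equal replicate numbers mean the same day, so libraries were paired by day in the daily differences and in the models with day terms. The main fit, with treatment alone, left the pairing out. Deviations from group means correlated at 0.329, 0.369 and 0.632 within days 1, 2 and 3. Between day 1 of one group and day 2 of the other they correlated at 0.336 and 0.363. Days 1 and 2 are thus hard to tell from each other. Because the deviations of a group cancel in sum, these values do not decide how far the 2 days are independent. Alternatives were the day block, other scaling, DESeq2 1.42.0, other filters and pseudocounts, and leaving out each library or day. The 9 genes and all lists were chosen with earlier results of these data known. Named are the 9 genes, in each list up to 8 genes past the threshold or else the 3 of smallest p, and the 4 genes most correlated with Msln, Plaur and Ly6a. Genes named as called with the block, untested genes of the lists, Ccn1, S100a10 and Mslnl were chosen after their values were seen. Promoters are RefSeq's for GRCm38.p6. Of the fetal-like list, 1 gene is counted but is not reported here.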

Additional observations from a re-analysis of the deposited data

Results flagged for a closer look

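Ly6a, the Sca-1 gene, moved one way on 2 days and the other way on the third. Its log2 difference between INT-777 and DMSO was −0.189 on day 1, −0.110 on day 2 and 0.517 on day 3. The difference between days was not tested, since each day has 1 pair of libraries. In the DMSO library of day 3 Ly6a was at 145.8 CPM, the lowest of the 6 libraries.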

How the results depend on the processing

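Over all genes, 110 were higher and 122 lower without the day block. With the replicate block these were 1770 and 1645, with DESeq2 369 and 429, and without the filter on low counts 186 and 249. Without both libraries of day 1 they were 0 and 0 (614 and 575 at an unadjusted p under 0.05), of day 2, 2 and 1, and of day 3, 2225 and 2067. Leaving out 1 library gave 2 to 105 higher and 6 to 168 lower. The causes were not tested.

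Counts in the gene lists moved likewise. Fetal-like genes, 5 higher and 1 lower, were 13 and 2 with the replicate block, 0 and 0 without day 1 or day 2, 14 and 7 without day 3, and 0 to 5 and 0 to 2 without 1 library. DESeq2 had 2 lower. Urokinase and plasmin genes, 1 and 0, were 2 and 5 with the block, 2 and 2 with DESeq2, 0 higher without day 1 or day 2, 2 and 7 without day 3, and 0 to 1 in each direction without 1 library. Ly6 and uPAR genes, 0 and 0, were 2 and 2 with the block, and 3 were lower without day 3. Paralogues, 1 and 1, were 6 and 5 with the block, 3 and 2 with DESeq2, 0 and 0 without day 1 or day 2, 5 and 7 without day 3, and 0 to 2 in each direction without 1 library.

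Between days, 3273 of all genes differed, and 2010 to 4867 did without 1 library. Of the 9 genes, 4 did, and 4 to 9 without 1 library. The mean log2 differences of the 9 genes moved by over 1 SD in 9 recomputations, each leaving out 1 library, and by less in 126. The 9 were of Anxa10 (1.44 to 2.45), Ly6e (−0.322 to −0.194) and Clu (−0.025 to 0.209). Ly6a ranged from −0.263 to 0.250. Other scalings (RLE, none) moved no count by over 1.5 times. Depth limits Plau most, with 73 to 132 read pairs.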
